A study of Mus musculus with 6 samples.

Results

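The hormone-sensing luminal genes are 9 genes of the mature luminal lineage taken by their symbol: Esr1, Pgr, Prlr, Foxa1, Gata3, Cited1, Tnfsf11, Greb1 and Stat5a. All 9 were listed among the 55291 genes of the count tables. RNA was sequenced from 6 libraries of cells sorted from the mammary glands of pubertal Adgra3-lz/+ mice aged 6 weeks, in which 1 copy of Adgra3, the gene for the adhesion receptor Gpr125, carries a β-galactosidase reporter. Cells bearing CD31, CD45 or Ter119 were removed, CD49fhi cells were kept, and these were divided by the fluorogenic β-galactosidase substrate FDG. The study's methods list a biotinylated antibody to CD140a beside those to CD31, CD45 and Ter119, and refer to this staining for the sort. The design text gives the abdominal glands of 5 mice pooled for each sample. Glands were cut at the lymph node, so that 2 libraries held FDG+ cells of the distal part with its terminal end buds (TEB-distal Gpr125+) and 2 held FDG+ cells of the part near the nipple (nipple-proximal Gpr125+). The other 2 held FDG- cells (Gpr125-negative), whose labels name no region. All 3 groups thus share the reporter allele, the age and the CD49fhi gate, a gate set for basal cells. Each replicate is a pool of mice, and p-values measure only the spread between these libraries.

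Hormone-sensing cells are the mature luminal cells that carry the receptors for estrogen, progesterone and prolactin. In the pubertal gland they respond to ovarian estrogen and pass the signal to their neighbours as secreted factors, amphiregulin downstream of estrogen and RANKL downstream of progesterone. FOXA1 and GATA3 hold chromatin open for the estrogen receptor, and STAT5A carries the prolactin signal to the nucleus.

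A single member was abundant and steady. Gata3, the transcription factor needed to form and keep luminal cells, was between 121 and 187 CPM (TMM-normalized counts scaled to library size) in every library. Cited1, a co-regulator of the estrogen receptor, was present in every library with its highest levels in both TEB-distal ones. Esr1, Prlr, Foxa1 and Tnfsf11 each reached at least 100 counts in some library and at most 3 in another, also between replicates of the same population. Pgr was at 1.67 CPM or less, and Greb1 was at or under the detection floor of 3 counts throughout. No member passed edgeR's test in any comparison, where 0% of the 17268 genes tested did.

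Total counts were between 20134890 and 37296640 per library, so that 3 counts, the smallest level taken as detected, came to 0.0645 to 0.147 CPM, a limit that covers counting error only. Adgra3 itself was not lower where the label was Gpr125-negative, at 35.7 and 18.6 CPM, than where it was Gpr125+, at 15 and 4.83 in TEB-distal and 19.2 and 12.3 in nipple-proximal libraries. The Gpr125-negative and nipple-proximal levels overlap, whereas both TEB-distal levels were below both Gpr125-negative ones. What the reporter insertion, which all 3 groups carry, does to the reads counted for this gene was not tested. Directions against the first group are directions against libraries so labelled. The log2 CPM of the libraries correlated least between the Gpr125-negative replicates (Pearson r = 0.733 across genes) and most between the nipple-proximal replicates (r = 0.933). The library labelled Gpr125-negative replicate 2 held the fewest detected genes, 17401 against 20384 to 21963 in the others.

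Gata3 (chr2:9857078-9890034, GRCm38, minus strand) had 5634 and 3878 counts in Gpr125-negative libraries, 3851 and 5497 in TEB-distal ones and 2650 and 2920 in nipple-proximal ones. It averaged 169 ± 26.2 CPM (SD, n = 2) in TEB-distal cells, 134 ± 5.18 in nipple-proximal cells and 126 ± 7.16 in the Gpr125-negative ones. The TEB-distal libraries were the 2 highest, and the other 4 overlapped. Over the 6 libraries the SD of its log2 CPM was 0.222, and 96 of the 17268 genes tested had a smaller one. Per kilobase of exon, the scale on which genes can be set side by side, it was the highest member in all 6 libraries at 30.5 to 47.0 CPM per kb. This put it at the 90.4 to 94.4 percentile of the genes detected in its library. Exons of 9230102O04Rik and of the antisense gene Gm13256 overlap 5.83% of its exon bases, and counting without strand cannot assign reads there.

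Cited1 (chrX:102247381-102252181) had 405 and 50 counts in Gpr125-negative libraries, 369 and 1156 in TEB-distal ones and 160 and 134 in nipple-proximal ones. It averaged 26.9 ± 17.7 CPM (SD, n = 2) in TEB-distal cells, 7.08 ± 1.10 in nipple-proximal cells and 5.20 ± 4.96 in the Gpr125-negative ones. Both TEB-distal libraries were above the other 4, and the spread within the TEB-distal pair was larger than the gap to the nearest other library. Per kilobase it came after Gata3 in 5 of the 6 libraries, at 0.966 to 22.4 CPM per kb.

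Of the receptors, Esr1 and Prlr differed widely between replicates and Pgr was low. Esr1 (chr10:4611593-5005614), the gene for estrogen receptor α, had 66 and 1 counts in Gpr125-negative libraries, 819 and 2 in TEB-distal ones and 22 and 67 in nipple-proximal ones. A single TEB-distal library held 84.7% of its summed CPM, at 31.9 CPM against 0.0681 in the other. It averaged 16 ± 22.5 CPM (SD, n = 2) in TEB-distal, 2.12 ± 1.47 in nipple-proximal and 0.727 ± 0.980 in Gpr125-negative cells, and neighbours in that order did not differ beyond their spread.

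Prlr (chr15:10177238-10349180), the prolactin receptor, had 766 and 1 counts in Gpr125-negative libraries, 2983 and 0 in TEB-distal ones and 7 and 3 in nipple-proximal ones. TEB-distal replicate 1, the library with the most Esr1, held 87.2% of its summed CPM, at 116 CPM, and the other TEB-distal library held no read of it. Of all 17268 genes tested, 5 had a larger SD of log2 CPM over the 6 libraries than its 4.37, and 379 had a larger one than Esr1's 3.06. Group levels came to 58.2 ± 82.2 CPM (SD, n = 2) in TEB-distal, 8.26 ± 11.6 in Gpr125-negative and 0.243 ± 0.143 in nipple-proximal cells. The TEB-distal and Gpr125-negative spreads each exceed their mean. Both nipple-proximal libraries were low, with a Gpr125-negative and a TEB-distal library lower still.

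Pgr (chr9:8899833-8968611), the progesterone receptor and a target of estrogen, was low in every library. It had 15 and 0 counts in Gpr125-negative libraries, 5 and 14 in TEB-distal ones and 34 and 19 in nipple-proximal ones. Both nipple-proximal libraries, at 1.67 and 0.895 CPM, were above the other 4, which lay between 0 and 0.477 CPM. The group levels were 1.28 ± 0.548 CPM (SD, n = 2) in nipple-proximal, 0.336 ± 0.199 in TEB-distal and 0.161 ± 0.228 in Gpr125-negative cells. Pgr and Esr1 did not peak together, since the library with the most Esr1 had 5 counts of Pgr.

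Foxa1 (chr12:57540628-57546916), the forkhead factor of luminal cells, had 223 and 0 counts in Gpr125-negative libraries, 123 and 68 in TEB-distal ones and 9 and 1 in nipple-proximal ones. Both TEB-distal libraries were above both nipple-proximal ones, and the Gpr125-negative pair spanned the whole range. The group levels were 3.56 ± 1.75 CPM (SD, n = 2) in TEB-distal, 2.40 ± 3.39 in Gpr125-negative and 0.245 ± 0.279 in nipple-proximal cells. Stat5a (chr11:100859351-100885169) was above the floor everywhere, with 543 and 19 counts in Gpr125-negative, 137 and 55 in TEB-distal and 151 and 74 in nipple-proximal libraries. The levels of its 3 groups overlapped, at 6.16 ± 7.81, 3.61 ± 2.45 and 5.45 ± 2.78 CPM in the same order (SD, n = 2). Its exons share 72 bases, 1.01% of their length, with Stat3 on the other strand.

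**Figure D1:**
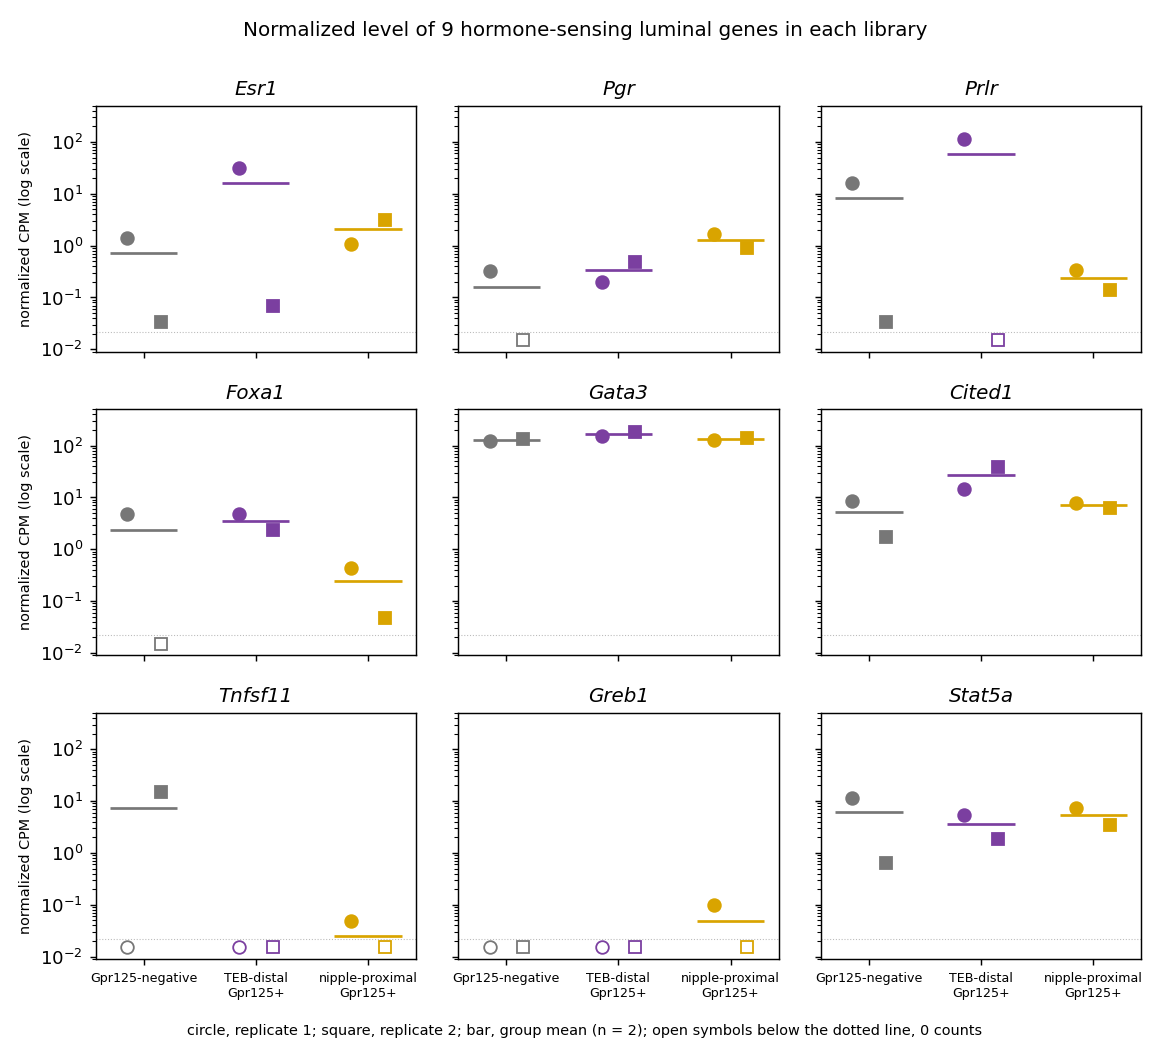
Normalized CPM on a log axis of the 9 members in the 6 libraries, with a circle for replicate 1, a square for replicate 2, a bar for the mean of 2 libraries and open symbols under the dotted line for 0 counts. Gata3 lies in a narrow band between 121 and 187 CPM, whereas Esr1, Prlr and Foxa1 span from at most 1 or 2 counts to at least 223 between replicates of a population.

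The ligand was above the floor in a single library, and the target was nearly absent. Tnfsf11 (chr14:78277445-78308043), which encodes RANKL, had 436 counts, or 14.8 CPM, in Gpr125-negative replicate 2 and 0 in replicate 1. Both TEB-distal libraries had 0 counts of it and the nipple-proximal ones 1 and 0, so that a single library held 99.7% of its summed CPM. The library with Tnfsf11 was one with no Pgr counts and 1 Esr1 count. Against 3 counts per library, the TEB-distal group was at least 67.4-fold lower than the Gpr125-negative mean, a bound that rests on that library, since without it no group was above the floor. Greb1 (chr12:16670615-16800886), a classical target of the estrogen receptor, had 2 counts in a nipple-proximal library and 0 in the other 5, and no fold is given. The antisense gene Gm48140 overlaps 7.68% of its exon bases. Neither gene passed the filter on low counts.

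The upstream sequence of 3 members is shown, for a gene that was steady (Gata3), one that varied most between libraries (Prlr) and one that stayed at the floor (Greb1). Each is 250 bases before a RefSeq transcript start (GRCm38.p6), written 5′ to 3′ on the gene's strand. The Gata3 window, the only one from RefSeq for this gene, lies inside the gene span given above and not at its 5′ end. Capitals mark matches on either strand to GGTCA, the repeat unit of an estrogen response element, to the forkhead sequence TGTTTAC or to the STAT sequence TTCNNNGAA.
Gata3, chr2:9878601-9878850, minus strand: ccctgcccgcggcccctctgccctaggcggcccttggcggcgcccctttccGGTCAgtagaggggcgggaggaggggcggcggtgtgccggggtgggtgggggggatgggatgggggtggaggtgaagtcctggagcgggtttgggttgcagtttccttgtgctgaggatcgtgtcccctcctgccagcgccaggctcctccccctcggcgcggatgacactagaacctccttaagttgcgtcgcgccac
Prlr, chr15:10223656-10223905, plus strand, before an internal start: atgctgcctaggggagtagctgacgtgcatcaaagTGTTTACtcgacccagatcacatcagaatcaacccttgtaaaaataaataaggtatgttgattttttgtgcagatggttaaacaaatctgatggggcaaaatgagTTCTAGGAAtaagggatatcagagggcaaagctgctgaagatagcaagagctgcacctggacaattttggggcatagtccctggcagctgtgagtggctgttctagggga
Greb1, chr12:16800887-16801136, minus strand: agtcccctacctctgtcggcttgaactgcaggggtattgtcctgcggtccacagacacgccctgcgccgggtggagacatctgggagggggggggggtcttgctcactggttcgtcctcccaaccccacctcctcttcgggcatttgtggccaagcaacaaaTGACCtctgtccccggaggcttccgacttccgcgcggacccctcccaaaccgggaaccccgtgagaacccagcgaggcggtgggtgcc
The Gata3 and Greb1 windows shown each held 1 GGTCA, and the Prlr window shown held a forkhead and a STAT match. The other 2 Prlr windows, the most upstream one included, held none of the 4 sequences searched, and the other Greb1 window held 2 more GGTCA. RefSeq gave 16 such windows for the 9 members. GGTCA was in 8 of them and in 35.2% of the 32851 upstream windows of all genes. TGTTTAC was in 2 of the 16 and in 3.17% of all, TTCNNNGAA in 2 and in 7.02%, and the GATA sequence AGATAA in 0 and in 9.99%. GGTCA can overlap other motifs, and windows of 1 gene are not independent. A match is a run of letters and not a measured site.

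The filter, which asks for enough counts in at least 2 libraries, left 7 of the 9 members among the 17268 genes tested. A gene that varies can pass it through its high libraries alone, so counts and medians over these 7 are descriptions. Of the members, 7 reached 100 counts in some library, and 4 of these were at 3 counts or fewer in another. Over all genes, 22.9% of the 13687 that reached 100 counts did the same. Between Gpr125-negative replicates the tested members differed by a median of 3.85 on the log2 CPM scale, against 1.65 over all tested genes. The same medians were 1.45 against 1.20 in the TEB-distal pair and 0.972 against 0.591 in the nipple-proximal pair. The TEB-distal pair differed by 10.7 for Prlr and 7.86 for Esr1, and by 0.318 for Gata3. Differences between replicates were therefore uneven among the members, and 3 members, Cited1, Stat5a and Pgr, had SDs of 1.46 to 1.61, above the median of 1.13 of all tested genes.

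**Figure D2:**
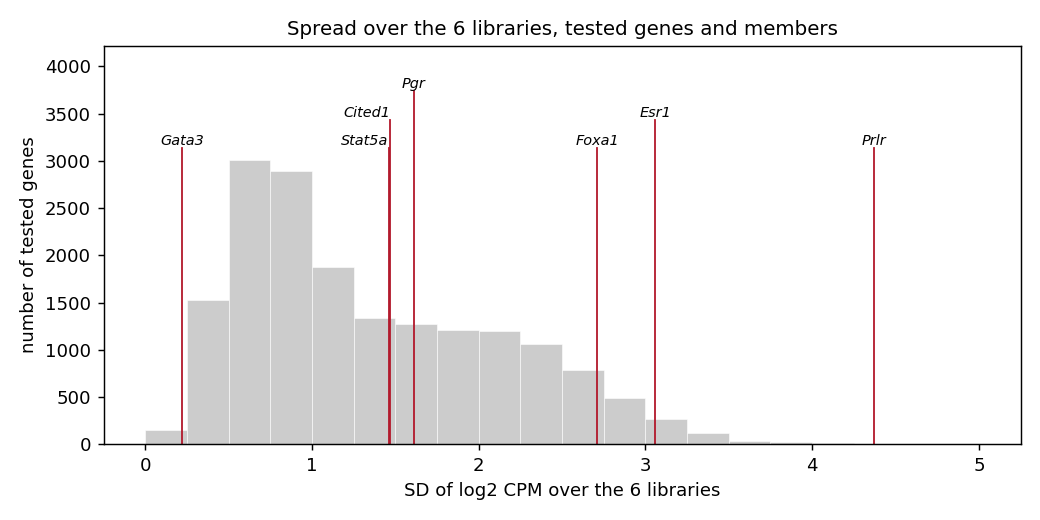
Histogram of the SD of log2 CPM over the 6 libraries for all 17268 tested genes, with the 7 tested members as vertical lines. Gata3, at 0.222, is near the lower end, and Esr1 at 3.06 and Prlr at 4.37 are in the upper tail beyond the median of 1.13.

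TEB-distal Gpr125+ cells were first set against Gpr125-negative cells. Cited1 was higher in both TEB-distal libraries by a fitted log2 fold change of 2.37 (standard error 1.13), with an adjusted p of 0.848 from edgeR's quasi-likelihood test. Without 1 library it ran from 1.46 to 3.87. Gata3 was higher in both by 0.42 (standard error 0.61, edgeR adjusted p = 1). These were the 2 members whose groups did not overlap in this direction, with 0 in the other, where 14% of all tested genes were higher and 10% lower without overlap. Groups without overlap keep their direction when a compared library is left out, so the sign of the range of Cited1 adds no support. Esr1 had a log2 fold change of 4.44 (standard error 2.59, edgeR adjusted p = 0.940), but of -3.32 without TEB-distal replicate 1 and 8.54 without Gpr125-negative replicate 1. Prlr, at 2.81 (standard error 2.77, edgeR adjusted p = 1), ran from -10.91 to 10.40 without the same libraries. Foxa1 and Pgr had log2 fold changes of 0.56 and 1.01 and Stat5a one of -0.77, each smaller than its standard error. Without Gpr125-negative replicate 1, Stat5a was at 2.33 and Pgr at 6.09, and Pgr was at 0.05 without replicate 2. Fits against a lone library with 0 or 1 count depend on the prior count and are no bounds.

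The same test set nipple-proximal Gpr125+ cells against Gpr125-negative cells. Pgr was higher in both nipple-proximal libraries, by a log2 fold change of 2.93 (standard error 2.23, edgeR adjusted p = 1), and by 1.98 to 7.99 when 1 library was left out. It was the only member of 7 whose groups did not overlap, where 19.9% of all tested genes were higher and 10.8% lower without overlap. For this reason the sign of its range adds no support, and the 7.99 was fitted against a lone library with 0 counts of Pgr. Prlr and Foxa1 had log2 fold changes of -5.07 (standard error 3.17) and -3.28 (standard error 2.59), with edgeR adjusted p-values of 1. Both had the opposite sign without Gpr125-negative replicate 1, at 2.55 and 5.63. Gata3, at 0.08 (standard error 0.61), was the member with the smallest difference. Esr1, Cited1 and Stat5a, at 1.53, 0.44 and -0.18, were each within their standard errors, and Esr1 ran from 0.57 to 5.64 without 1 library. This comparison shares its Gpr125-negative libraries with the one before, so the pair is not independent.

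TEB-distal and nipple-proximal Gpr125+ cells were compared with each other. Of the 7 members, 3 were higher in both TEB-distal libraries without overlap, where 15.2% of all tested genes were, and 1 was lower, where 18.3% were. The 3 were Foxa1 at a log2 fold change of 3.84 (standard error 2.66), Cited1 at 1.92 (standard error 1.12) and Gata3 at 0.33 (standard error 0.61), and the other was Pgr at -1.92 (standard error 2.15). The edgeR adjusted p was 1 for each of these 4. With any 1 library left out, the log2 fold changes ran from 2.98 to 6.12 for Foxa1 and 1.00 to 2.54 for Cited1. They ran from 0.15 to 0.55 for Gata3 and -2.71 to -1.36 for Pgr. Genes whose groups do not overlap keep their direction when a compared library is left out, so these signs add no support. Prlr had the largest difference of the members, at 7.88 (standard error 3.56, edgeR unadjusted p = 0.0590 and adjusted p = 1). It was -5.82 without TEB-distal replicate 1. Esr1, at 2.91 (standard error 2.42), was likewise -4.80 without that library. Stat5a was at -0.60 (standard error 1.61).

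Over the 3 comparisons 0 members, and 0% of all tested genes, passed an FDR under 0.1 with at least a 2-fold change in edgeR's quasi-likelihood test, and 0 members had an unadjusted p under 0.05. Unadjusted, 1045, 613 and 381 genes did, in the order above. DESeq2, the tool of the study's methods, fitted to the 4 libraries of each comparison, called 2.45%, 1.16% and 1.31% of the genes with at least 1 count, and 0 of the 7 members tested above, with no adjusted p for Pgr in the first comparison. Its lowest adjusted p for these was 0.185, for Foxa1 between the Gpr125+ populations. DESeq2 was run without the filter on low counts, and it called Tnfsf11 lower than in Gpr125-negative cells in both comparisons (adjusted p = 1.95e-12 in the first and 0.0976 in the second). Those calls set 0 or 1 counts against the 436 of a single library whose replicate had 0, and DESeq2 on all 6 libraries, which called 3.22%, 1.10% and 0.441% of genes, gave 3.15e-11 and 0.180. On all 6 it also called Tnfsf11 between the Gpr125+ populations (adjusted p = 0.00367), which differ there by 1 read. When edgeR was run on all genes with at least 1 count, which takes in all 9 members and called 0.468%, 0.198% and 0.133% of genes, Prlr was the member called, and Tnfsf11 had an adjusted p of 0.116 to 1. The edgeR adjusted p was then 0.000121 between TEB-distal and nipple-proximal cells, where its alternatives ran up to 1, and 0.0382 between nipple-proximal and Gpr125-negative cells, also up to 1. Each of these differences had the opposite sign without 1 library, as given above. The median log2 fold change of the 7 members was 1.01, 0.08 and 1.92 in the 3 comparisons, against 0.03, -0.0032 and 0.06 over all tested genes. Without TEB-distal replicate 1, the first became -0.0224 and the last -1.36. Without Gpr125-negative replicate 1, the first became 6.09 and the second 2.94, and the second was -0.29 without replicate 2. With a biological coefficient of variation of 0.967 and 2 libraries per group, these p-values do not show that levels were alike.

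**Figure D3:**
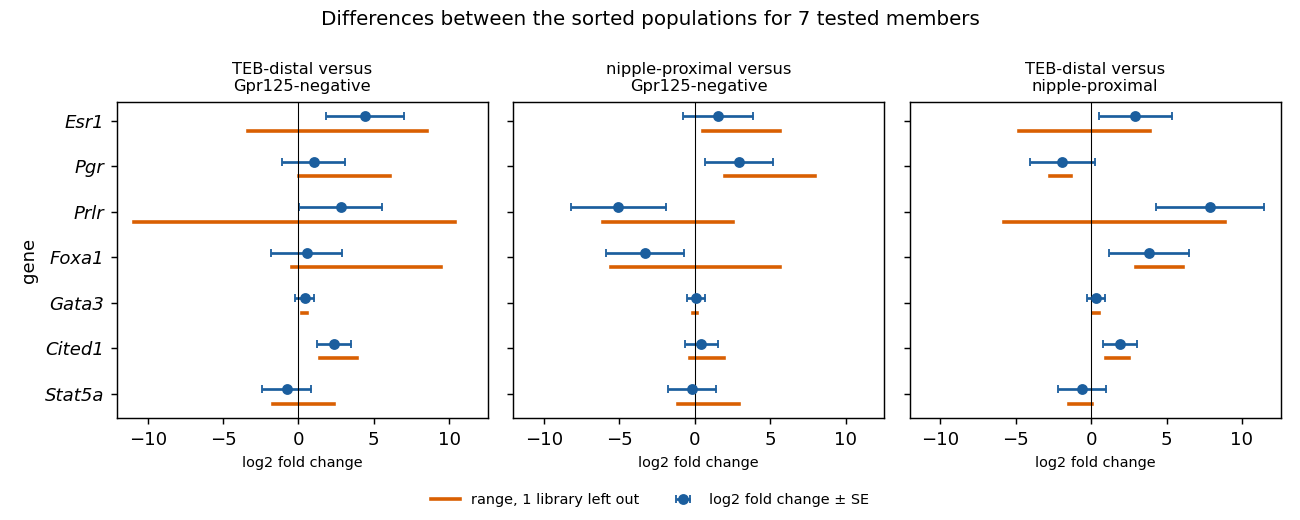
Log2 fold changes of the 7 tested members (blue, ± standard error from edgeR) in the 3 comparisons, with the range over fits that leave out 1 library (orange). The ranges of Esr1 and Prlr cross 0 in the comparisons with TEB-distal cells, from -10.91 to 10.40 for Prlr against Gpr125-negative cells, whereas Gata3 stays between -0.11 and 0.56.

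The members did not move as 1 block. Over the 6 libraries, the 21 pairs of tested members had Pearson correlations of log2 CPM from -0.349 to 0.811, with a median of 0.351 and 17 above 0. The highest was between Esr1 and Prlr (0.811), both highest in TEB-distal replicate 1, followed by Gata3 and Cited1 (0.746) and Foxa1 and Cited1 (0.745). All pairs share the same 6 libraries and their depth. Of the 7 tested members, 5 (Esr1, Pgr, Foxa1, Cited1 and Stat5a) had their lowest level in Gpr125-negative replicate 2, the library with the fewest detected genes. The mean standardized level of the 7 was -1.214 there and between -0.123 and 0.703 in the others. The 5 tested genes whose log2 CPM over the 6 libraries was most like that mean were Tmprss2 (Pearson r = 0.994), Gm48062 (0.993), AC163703.1 (0.993), Gmip (0.992) and Rmdn1 (0.991), each low in that same library. They were picked as the highest among all tested genes over only 6 libraries, so these correlations are no evidence of shared regulation. Tmprss2, which encodes a membrane serine protease, had 225 and 0 counts in Gpr125-negative libraries and 405 and 129 in TEB-distal ones.

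Of 13 co-regulators and related receptors of the steroid receptors, 11 were tested. In every comparison 0 of these, and 0% of all tested genes, passed the edgeR test. The other 2 were nearly absent: Esr2, estrogen receptor β, had 8 counts in 1 nipple-proximal library and Gper1 had 26 in 1 Gpr125-negative library, with 0 elsewhere. Between TEB-distal and Gpr125-negative cells 4 were higher and 7 lower, with a median log2 fold change of -0.10. Between nipple-proximal and Gpr125-negative cells 7 were higher and 4 lower (median 0.10), and between the Gpr125+ populations 2 were higher and 9 lower in TEB-distal cells (median -0.17). Ncoa1, a coactivator of both receptors, had 487 to 938 counts in every library, 20.2 and 18.1 CPM in Gpr125-negative against 23.2 to 30.3 in the 4 Gpr125+ libraries. Ncoa2, of the same family, was at 25.4 and 29.0 CPM in Gpr125-negative and 30.4 and 33.1 in nipple-proximal libraries. Nrip1, a corepressor that estrogen induces, was at 108 and 72.1 CPM in TEB-distal and 147 and 199 in nipple-proximal libraries.

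Of 14 genes of the estrogen and progesterone response, 11 were tested and 0 passed the edgeR test, where 0% of all tested genes did. They divided into 5 higher and 6 lower in TEB-distal against Gpr125-negative cells (median log2 fold change -0.08), 7 and 4 in nipple-proximal cells (0.61), and 4 and 7 between the Gpr125+ populations (-0.50). Tff1 and Calca had 0 counts in every library, like Greb1 in 5 of 6. Areg, the amphiregulin through which estrogen acts on the pubertal duct, had 1215 and 614 counts in Gpr125-negative libraries, 955 and 561 in TEB-distal ones and 351 and 1885 in nipple-proximal ones. Its 3 groups overlapped, at 23.5 ± 3.78, 28.2 ± 12.8 and 53.0 ± 50.6 CPM in the same order (SD, n = 2). The libraries with 1 or 2 counts of Esr1 still had 614 and 561 counts of Areg. In each pair, the replicate with more Esr1 counts also had more Areg counts, and whether the 2 are linked was not tested. Of all tested genes, 10% were lower without overlap in TEB-distal and 10.8% in nipple-proximal than in Gpr125-negative cells. Wnt4, a progesterone-induced ligand, was at 1.76 and 1.52 CPM in Gpr125-negative libraries and between 0.0681 and 0.741 in the 4 Gpr125+ ones, with no overlap. Against them its log2 fold change was -2.02 for TEB-distal cells and -2.10 for nipple-proximal ones (edgeR adjusted p = 1 for each). Ccnd1, cyclin D1, was at 10 and 5.65 CPM in TEB-distal, 4.86 and 4.43 in nipple-proximal and 5.57 and 0 in Gpr125-negative libraries. Rara, the retinoic acid receptor induced by estrogen, was at 42.8 and 17.3 CPM in nipple-proximal libraries, above the 4.67 to 14.9 of the other 4. Igfbp4, Fkbp5 and Cxcl12 were also among those without overlap in 1 comparison, none past the test. In these comparisons 15.2% to 19.9% of all tested genes were higher without overlap. Igfbp4 was at 66.3 and 146 CPM in nipple-proximal against 23.0 and 61.7 in Gpr125-negative libraries, and Fkbp5 at 17.1 and 13.1 against 12.2 and 0.102. Cxcl12 was at 10.4 and 8.85 CPM in TEB-distal against 6.97 and 4.94 in nipple-proximal libraries.

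Of 9 other genes known from hormone-sensing luminal cells, 8 were tested and 0 passed the edgeR test, where 0% of all tested genes did. In the order of comparisons above, 5, 4 and 5 were higher, with median log2 fold changes of 0.16, -0.04 and 2.00. Prom1, the surface marker of estrogen receptor-positive luminal cells, had 159 and 33 counts in Gpr125-negative libraries, 1189 and 171 in TEB-distal ones and 122 and 43 in nipple-proximal ones. It was higher in both TEB-distal than in both Gpr125-negative libraries, by a log2 fold change of 3.52 (standard error 1.41, edgeR adjusted p = 0.810). DESeq2 called it in this comparison on all 6 libraries (adjusted p = 0.0946), but not on the 4 compared (0.204). Prom1 was highest in the TEB-distal replicate that had Esr1 and Prlr. Ly6a, which encodes Sca1, another marker of these cells, peaked in the same library at 120 CPM. It was at 9.12 CPM in the other TEB-distal library and at 6.97 and 4.43 in the nipple-proximal ones. DESeq2 on the 4 libraries called Ly6a between the Gpr125+ populations (adjusted p = 0.0400), but not on all 6 (0.601). Its Gpr125-negative libraries were at 46.1 and 1.15 CPM. Cldn10, a claudin, had 379 and 60 counts in TEB-distal, 0 and 11 in nipple-proximal and 0 in both Gpr125-negative libraries. DESeq2 on 4 libraries called it in both comparisons of TEB-distal cells (adjusted p = 0.000336 against Gpr125-negative and 0.0367 against nipple-proximal cells), on all 6 only in the first (0.000844 and 0.402), and edgeR in neither (adjusted p = 0.803 and 1). The factor Spdef, which drives secretory cell fates, was at 4.60 and 4.81 CPM in Gpr125-negative, 0.624 and 4.29 in TEB-distal and 0.344 and 0 in nipple-proximal libraries. Tbx3 and Tspan8 were lower in TEB-distal than in nipple-proximal libraries without overlap, where 18.3% of all tested genes were. Tbx3 was at 11.7 and 9.60 against 22.1 and 12.9 CPM and Tspan8 at 0 and 0.885 against 2.41 and 2.45.

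Below the prolactin receptor, all 13 genes of the JAK-STAT list were tested. Of these 0, and 0% of all tested genes, passed the edgeR test. In TEB-distal against Gpr125-negative cells 3 were higher and 10 lower (median log2 fold change -0.30), in nipple-proximal cells 4 higher and 9 lower (median -0.35), and between the Gpr125+ populations 7 higher and 6 lower (median 0.11). Stat3 was at 171 and 245 CPM in TEB-distal against 401 and 250 in nipple-proximal libraries. Socs2, a feedback inhibitor that STAT5 induces, was at 24.8 and 18.7 against 29.3 and 36.0 CPM in the same order. Cav1, which restrains JAK2 in mammary epithelium, was at 212 and 203 against 126 and 101 CPM. Ptpn11, the phosphatase SHP2, was at 97.0 and 86.5 CPM in Gpr125-negative against 67.2 and 77.3 in nipple-proximal libraries.

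On the receiving side of RANKL, all 14 genes were tested and 0 passed the edgeR test, where 0% of all tested genes did. There were 8, 10 and 3 higher in the 3 comparisons, with median log2 fold changes of 0.02, 0.26 and -0.39. Tnfrsf11a, which encodes its receptor RANK, had 673 and 6 counts in Gpr125-negative libraries, 197 and 176 in TEB-distal ones and 319 and 548 in nipple-proximal ones. It was lowest in the library that alone held Tnfsf11. Both nipple-proximal libraries, at 15.7 and 25.8 CPM, were above the other 4. Tnfrsf11b, the decoy receptor osteoprotegerin, had 50 and 44 counts in nipple-proximal, 0 and 3 in TEB-distal and 0 in both Gpr125-negative libraries. It was the gene of this list with an unadjusted p under 0.05 in a comparison with Gpr125-negative cells (0.0171, edgeR adjusted p = 1). DESeq2 gave it an adjusted p of 0.0156 on the 4 libraries and 0.0599 on all 6. Traf3, an adaptor that holds the pathway back, was at 87.7 and 61.8 CPM in nipple-proximal against 48.4 and 18.7 in Gpr125-negative libraries. Id2, a regulator downstream of RANK, was at 171 and 71.3 CPM in TEB-distal against 55.1 and 53.9 in nipple-proximal libraries. Relb, of the noncanonical NF-κB arm, was at 10.6 and 30.3 CPM in TEB-distal libraries, below the 31.4 to 42.8 of the other 4.

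**Figure D4:**
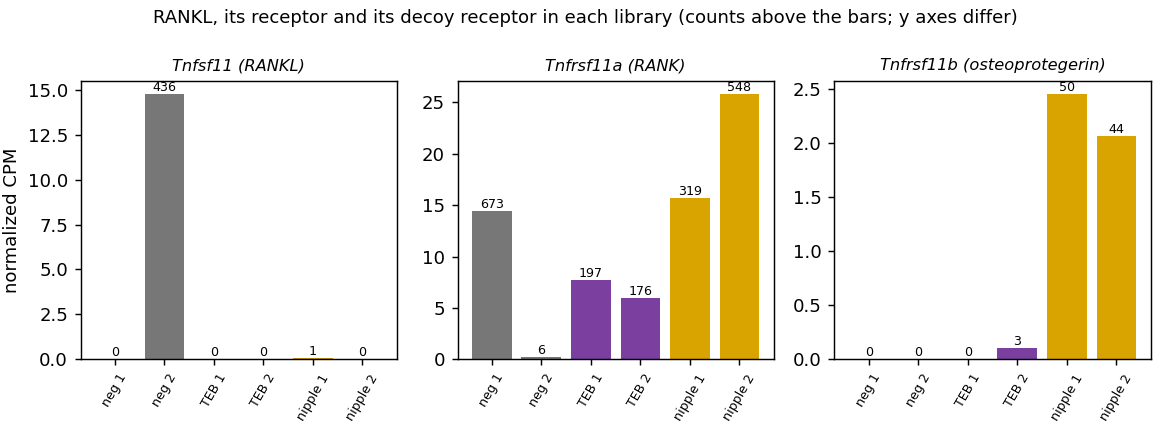
Normalized CPM of Tnfsf11 (RANKL), Tnfrsf11a (RANK) and Tnfrsf11b (osteoprotegerin) in the 6 libraries, with read counts above the bars and a separate linear axis for each gene. Tnfsf11 has 436 counts in a single Gpr125-negative library, which has 6 counts of Tnfrsf11a, and Tnfrsf11b has 50 and 44 counts in the nipple-proximal libraries.

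Markers of the cell types the gate could hold were followed by their summed CPM. All 10 luminal markers were above the floor in 5 libraries, and 9 in TEB-distal replicate 2, where Muc1 was at 0. Their sum was 2880 and 1510 in Gpr125-negative, 3300 and 2860 in TEB-distal and 3110 and 2430 in nipple-proximal libraries. The 2 libraries with at most 2 counts of both Esr1 and Prlr thus held 1510 and 2860 CPM of luminal markers. All 12 basal markers were above the floor everywhere, with sums of 3390 and 3550 in Gpr125-negative, 4020 and 23000 in TEB-distal and 9450 and 15000 in nipple-proximal libraries. TEB-distal replicate 1, with most of the Esr1 and Prlr, had the lower basal sum of its pair. In bulk RNA, fewer cells of a type and less RNA per cell cannot be told apart.

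Of the 10 luminal progenitor and alveolar markers, 7 to 9 were above the floor and summed to 333 to 932 CPM, with Elf5 at 0 in 3 libraries. The 12 endothelial markers, a type the sort should remove, summed to 916 and 757 CPM in Gpr125-negative against 18.3 to 153 in Gpr125+ libraries, and the 8 adipocyte markers to 688 and 636 against 13.3 to 53.6. Fabp4, which endothelial cells also express, made up 672 and 631 CPM of the adipocyte sum in Gpr125-negative libraries, where Plin1 and Cidec were at 0 and Pparg at 0 and 1 counts. The 13 leukocyte markers summed to 80.5 and 75.1 in Gpr125-negative and 113 to 311 in Gpr125+ libraries. Most of that was Cd68, at 71.1 and 43.3 CPM against 99.2 to 290, whereas Lyz2 was between 4.28 and 10.4 CPM in all 6 and Csf1r was highest in a Gpr125-negative library at 17.1. The 10 fibroblast markers summed to 28.6 and 149 CPM in Gpr125-negative, 91.5 and 176 in TEB-distal and 69.2 and 53.3 in nipple-proximal libraries. Between the Gpr125+ populations 8 of 8 tested were higher in TEB-distal cells, with a median log2 fold change of 2.88. Of these, 6 did not overlap, where 15.2% of all tested genes were higher without overlap. In the same comparison 8 leukocyte markers were higher (5 without overlap) and 2 lower. Of the endothelial ones 11 were lower (4 without overlap, against 18.3% of all tested genes) and 1 higher. The 8 pericyte markers ran from 1.67 to 27.9 CPM. The basal, endothelial, adipocyte and leukocyte sums move with the contrasts of Gpr125-negative cells in which Cited1, Pgr and Gata3 did not overlap. The pericyte sum moves with the one of these that holds TEB-distal cells. The fibroblast and endothelial sums move with the contrast between Gpr125+ populations, in which Foxa1, Cited1, Gata3 and Pgr did not overlap. Their part in the members' levels was not tested.

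**Figure D5:**
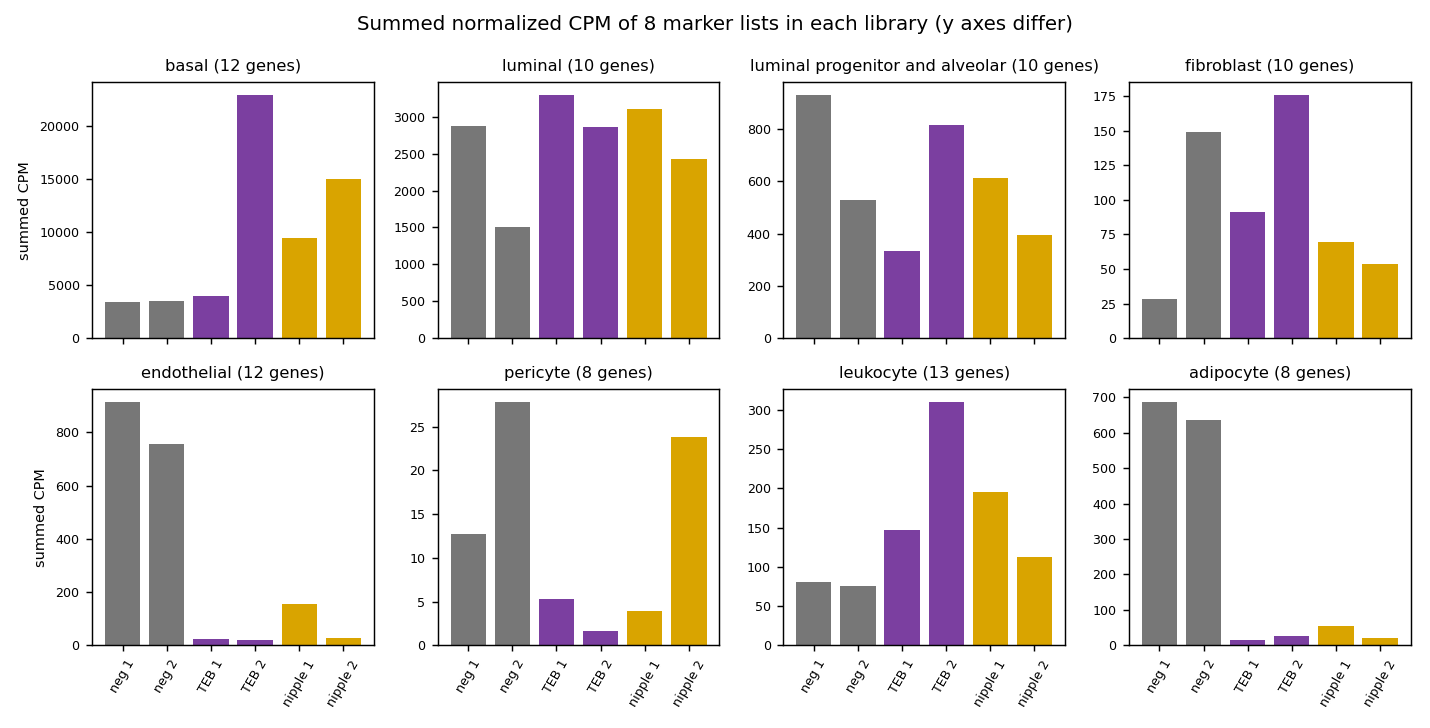
Summed normalized CPM of 8 marker lists in the 6 libraries, with a separate linear axis starting at 0 for each list. The luminal sum stays between 1510 and 3300, the basal sum is highest in TEB-distal replicate 2 at 23000, and the endothelial and adipocyte sums are highest in both Gpr125-negative libraries.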

How the data were processed

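RNA of CD49fhi mammary cells, sorted by β-galactosidase activity, was amplified full-length with the SMART-Seq HT kit, without molecular identifiers or strand. The authors aligned reads to mm10 (GRCm38) with STAR, given as 2.7.3 in the submitters' processing notes, counted them per gene with HTSeq and deposited raw counts for each library. The annotation release used for counting is not given in the sources used here. The deposited counts were tested here with the quasi-likelihood test of edgeR 4.0.16 (R 4.3.3) after TMM scaling, with genes kept by filterByExpr (minimum count 10) and robust dispersions, as 3 contrasts of 1 model over 6 libraries. A call needed a Benjamini-Hochberg FDR below 0.1 together with a 2-fold change. Standard errors come from the F statistic, and log2 CPM used a prior count of 2. DESeq2 1.42.0 was an alternative, with other normalizations, filters, a replicate block and leaving out each library. With 2 libraries against 2, an exact permutation test cannot go below p = 0.333. Coordinates and exon lengths are from GENCODE on GRCm38, upstream sequences from RefSeq. Groups come from the labels. The study's methods give another age range and another number of pooled mice than its design text. The scripts were tested on simulated data.

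The members and all lists were chosen with earlier results of these data known. All 9 members are named, and from each pathway list up to 3 genes per direction and comparison, those with the largest fitted change among genes whose groups did not overlap. Such a lack of overlap held for 10% to 19.9% of all tested genes by direction and comparison. Areg, Tff1, Calca, Esr2, Gper1 and single marker genes were picked once their values were known. One gene that this rule selects is not reported here.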

Additional observations from a re-analysis of the deposited data

How the results depend on the processing

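The count of called genes, 0 in each comparison with edgeR's quasi-likelihood test, depended on the filter and the tool. For TEB-distal against Gpr125-negative, nipple-proximal against Gpr125-negative and TEB-distal against nipple-proximal cells, edgeR with every gene of at least 1 count called 137, 58 and 39. DESeq2 called 943, 321 and 129 on all 6 libraries and 667, 317 and 360 on the 4 compared. Leaving out 1 library gave 0 to 747, 0 to 335 and 0 to 12, the highest of the first 2 without Gpr125-negative replicate 1 and of the last without nipple-proximal replicate 2. A lone library is then assumed to vary like the other groups. The cause was not tested.

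The median log2 fold change of the members ran from -0.0224 to 6.09, from -0.29 to 2.94 and from -1.36 to 2.08 when 1 library was left out. Between the Gpr125+ populations it was 0.32 with every gene of at least 1 count, where more members were fitted. Members without overlap numbered 4 to 6, 1 to 6 and 4 to 7 when 1 compared library was left out, which was tried after seeing the data, since a lone library overlaps less.

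Among single members, 14 of 126 values with 1 library left out changed sign, and 7 of 167 under other settings. The ranges without 1 library for TEB-distal against Gpr125-negative cells were -3.32 to 8.54 for Esr1, -10.91 to 10.40 for Prlr, -0.44 to 9.45 for Foxa1 and -1.70 to 2.33 for Stat5a. For nipple-proximal against Gpr125-negative cells they were -6.06 to 2.55 for Prlr, -5.56 to 5.63 for Foxa1, -1.09 to 2.94 for Stat5a, -0.29 to 1.93 for Cited1 and -0.11 to 0.15 for Gata3. For TEB-distal against nipple-proximal cells they were -4.80 to 3.90 for Esr1, -5.82 to 8.86 for Prlr and -1.48 to 0.0465 for Stat5a. Gata3 in nipple-proximal against Gpr125-negative cells, at 0.08, was -0.090 with DESeq2 size factors, -0.0227 with upper-quartile factors, -0.0897 and -0.0715 with DESeq2 on 6 and 4 libraries and -0.0093 with edgeR on 4.

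Same-numbered libraries deviated together by correlations of -0.0347, 0.194 and -0.00495 across genes. With a single difference per group, these values cannot settle whether same-numbered libraries came from the same mice. With the replicate number as a block, edgeR called 0 genes in each comparison. The members' median was then 2.19, 0.56 and 0.33, Esr1 between the Gpr125+ populations was -1.27 and Stat5a in nipple-proximal against Gpr125-negative cells 0.66.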
